A study of Mus musculus with 6 samples.

Results

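Genes of amino acid transporters were followed in IEC 4.1, mouse cells that the labels describe as intestinal epithelium in culture. Members were all rows whose gene symbol belonged to the families Slc1a, Slc3a, Slc6a, Slc7a, Slc36a, Slc38a or Slc43a, with a number after the family name and nothing more. This gave 42 of 14701 genes in the tables. Untreated control samples (labelled 2, 3 and 4) were compared with samples exposed for 6 h to 10 ng/ml of interferon-gamma (labelled 1, 2 and 4), with n = 3 per group. The labels name no transgene or other agent in either group. Libraries held 17490689 to 18678543 estimated read counts each. The labels do not say whether the samples came from separate cultures, so p-values may measure technical spread only. The defining markers of the labelled cell type were nearly absent: of 14 epithelial identity genes 9 had a row, the highest value was 0.533 CPM (counts scaled to library size) for Krt8, and their summed level was 0.691 to 0.959 CPM in controls and 0.412 to 0.661 CPM in treated libraries. Of 11 mesenchymal genes 10 had a row, and they summed to 7401 to 7713 CPM in controls and 6948 to 7490 CPM in treated libraries. Of the 9 tested, 2 rose and 6 fell, against 19.9% risen and 18.1% fallen among all genes tested. The sum hides opposite moves: Vim rose from 2386 to 2946 CPM and Col1a1 fell from 1656 to 1321 CPM, both named after their values were seen. Of 11 leukocyte markers, 5 had a row, summing to 22.5 to 25.4 CPM in controls and 20 to 21.8 CPM in treated libraries. Most of that sum was Cd14 alone (means of 21.7 and 19.3 CPM), while Ptprc was at 0.0353 and 0 CPM. Of 6 endothelial markers, 3 had a row, none above 0.53 CPM. The part of these levels in the results was not tested.

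Cells take up amino acids through carriers that differ in the charge and size of the amino acids they accept. Slc7a1, Slc7a2 and Slc7a3 encode the cationic transporters for arginine, lysine and ornithine. Several other Slc7 proteins are light chains that reach the cell surface only when joined to a heavy chain, most often the product of Slc3a2 (CD98), and they work as exchangers. Slc1 and Slc38 carriers of small neutral amino acids such as alanine, serine and glutamine load the cell with substrates that these exchangers trade for leucine and other essential amino acids. Slc1 also holds the glutamate and aspartate transporters, and Slc6 holds carriers of neurotransmitters, taurine and creatine beside some amino acid transporters. Intracellular amino acids feed the mTORC1 growth pathway, and when they run short the transcription factor ATF4 raises many transporter genes.

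With interferon-gamma, 8 transporter genes fell by moderate amounts, the most abundant one, Slc38a2, was not called, and the one that rose did so from almost nothing. Slc7a1, the main cationic amino acid transporter gene here, fell to 60% of its control level, Slc7a5 (LAT1, large neutral amino acids) to 64%, and Slc1a4 (ASCT1, serine and alanine) to 68.2%. Slc3a2, Slc7a6, Slc6a6, Slc6a8 and Slc38a1 fell to between 77.5% and 84%. Slc6a19, which encodes the neutral amino acid transporter of the intestinal brush border, rose from a total of 1 count in 3 controls to 90 counts in 3 treated libraries.

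Of the 42 members, 25 passed the filter on low counts and were tested with edgeR over all genes. At an adjusted p under 0.05, 8 fell and 1 rose, and 16 were not called. Among all 11423 genes tested, 38.1% were called, 18.1% fell and 19.9% rose. For the tested members the shares called and fallen were 36% and 32%. Groups did not overlap in CPM for 12 of the 25 tested members, against 48% of all genes tested. Their median log2 fold change was -0.07, against 0.01 over all genes tested. The balance of rises and falls over all genes moved with scaling, from 2278 rises and 2069 falls to 1644 rises and 3124 falls on total counts, while the members gave 1 rise and 8 or 9 falls under every alternative run. A lower level of RNA per cell and fewer cells of a type cannot be told apart in bulk samples.

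**Figure D1:**
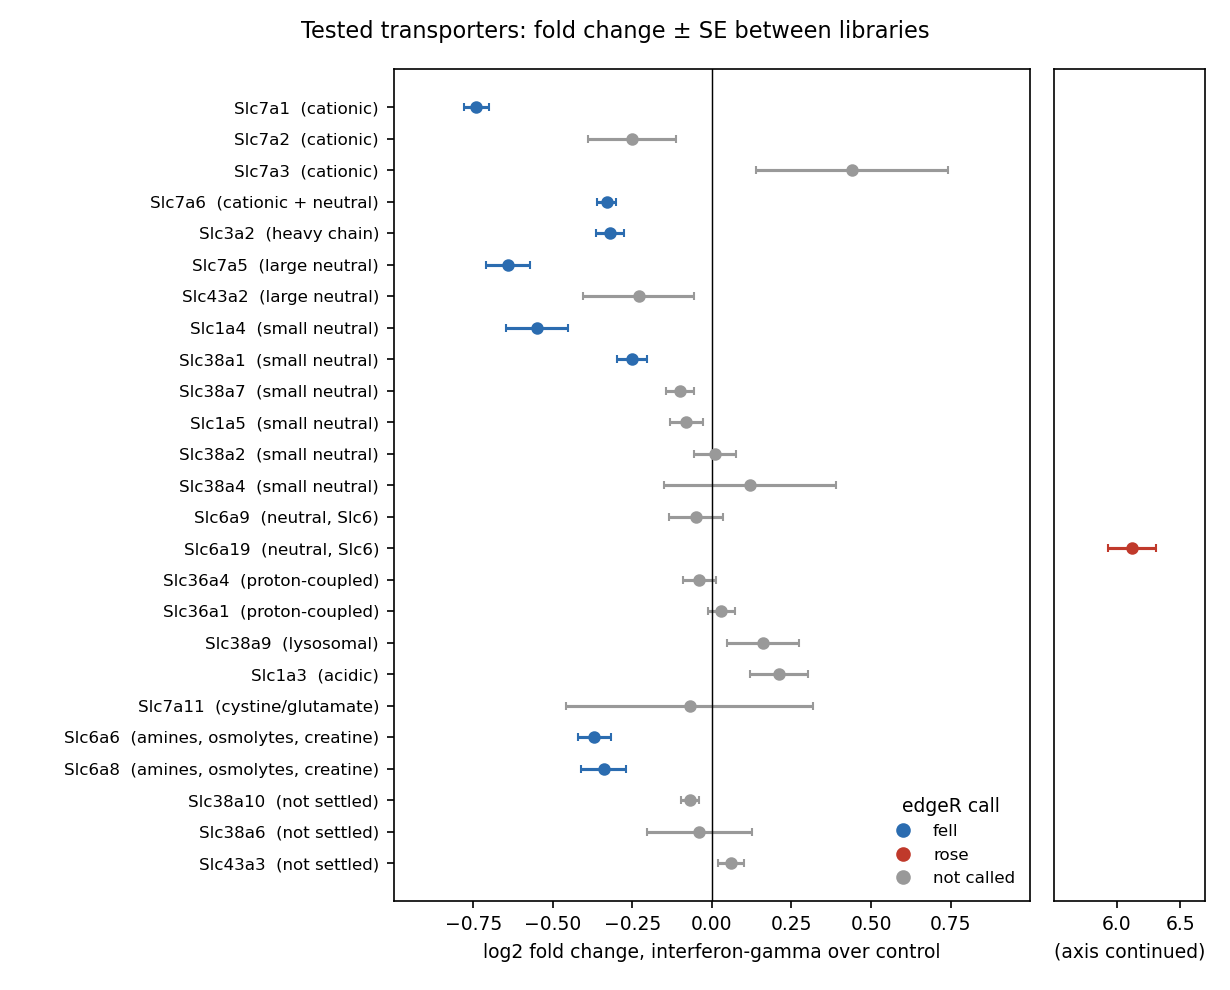
Log2 fold change of interferon-gamma over control for the 25 tested transporters (horizontal axis, continued in the right panel), grouped by what they carry (vertical axis); bars are the SE between libraries, n = 3 per group, and colour gives the edgeR call. Slc7a1 at -0.74 was the farthest below 0, and Slc6a19, at 6.12 with all libraries and 5.66 to 7.95 with 1 left out, lay outside the range of the others.

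The other 17 members were too low to test. None had more than 10 counts in any library, a value reached by Slc3a1, the heavy chain partner of the cystine and cationic amino acid exchanger. They were 3 of 4 acidic transporters and 7 of 17 neutral transporters outside the proton-coupled and lysosomal ones. Also among them were 2 of 3 exchangers of cationic with neutral amino acids and 3 of 5 carriers of amines, osmolytes or creatine. The last were 2 of 5 members given no substrate class here. Every row had counts in at least 1 control, whereas 673 rows had none in any treated library, so a transporter silent in the controls would have no values here.

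Levels of different genes were compared in TPM, which scales for gene length. In controls Slc38a2 (SNAT2, small neutral amino acids) was highest at 187 TPM, followed by Slc3a2 at 114, Slc7a5 at 99, the taurine transporter gene Slc6a6 at 78.2 and Slc7a6 at 73 TPM. These 5 genes held 66% of the members' summed TPM in controls. The creatine transporter gene Slc6a8 (58.9 TPM), Slc38a10 (48 TPM) and Slc7a1 (39.8 TPM) came next. Neighbours in this order were not all distinct: single libraries of Slc6a6 ran from 70 to 82.4 TPM in controls, across the Slc7a6 values of 70.3 to 74.6 TPM. The TPM summed over all members was 835 ± 37.3 in controls and 654 ± 20.5 in treated libraries (mean ± SD, n = 3 per group). Transporters of cationic amino acids alone went from 40.5 ± 2.92 to 22.9 ± 1.28 summed TPM and those of large neutral amino acids from 101 ± 2.65 to 60.2 ± 4.46. Small neutral transporters went from 256 ± 22.8 to 230 ± 3.62 and acidic ones from 1.85 ± 0.164 to 1.95 ± 0.243 summed TPM. These sums are descriptions with no test. TPM are not scaled as the CPM used for the calls, and treated values ran lower in TPM than in CPM. Slc38a2 went from 187 to 173 TPM but from 497 to 500 CPM. Slc36a1 went from 7.33 to 6.94 TPM but from 22.3 to 22.8 CPM. A lower sum in TPM is thus not all a fall by the measure used for the calls.

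**Figure D2:**
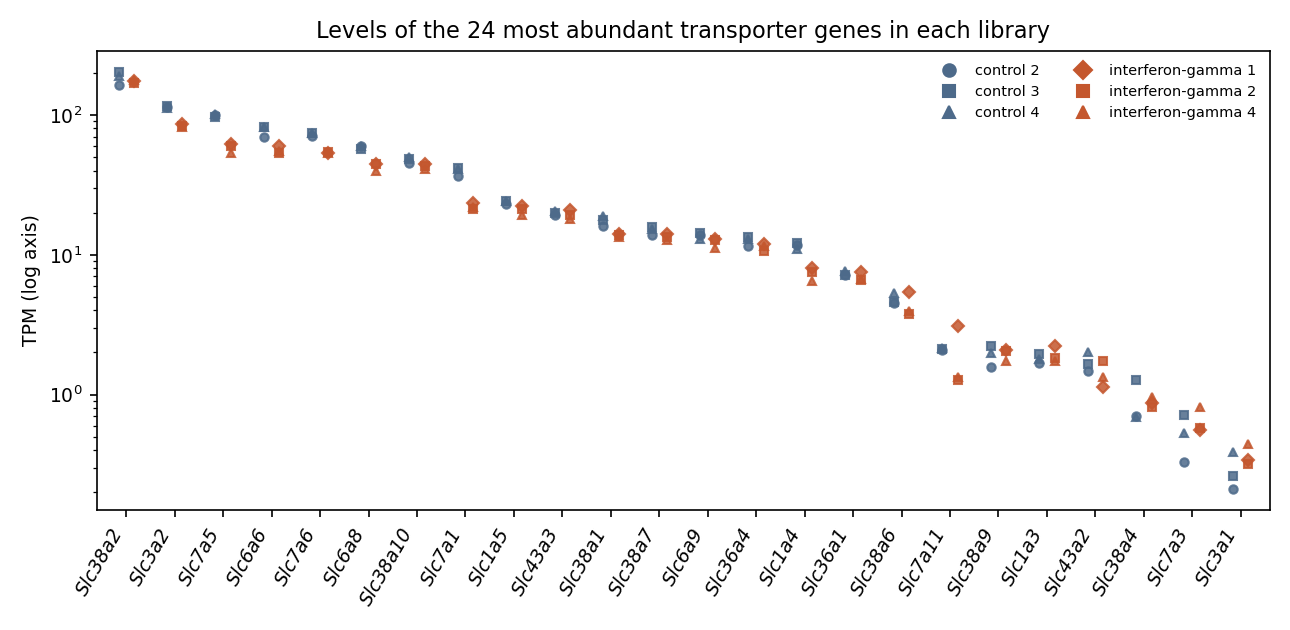
TPM on a log axis (vertical) of the 24 most abundant transporter genes, ordered by their control mean (horizontal); each symbol is 1 library, blue for control and orange for interferon-gamma. Slc38a2 led in both groups, and the symbols of Slc7a5 and Slc7a1 separated by group while those of Slc38a2 overlapped.

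Among the cationic transporters, nearly all of the signal came from Slc7a1 (chromosome 5, 148327410 to 148399904, minus strand, GRCm38.p6), which encodes CAT1. Slc7a1 had 161, 171 and 169 CPM in control libraries 2, 3 and 4, and 104, 96.7 and 99.8 CPM in treated libraries 1, 2 and 4. The lowest control lay well above the highest treated library. Its log2 fold change was -0.74 ± 0.0399 (SE between libraries, n = 3 per group, edgeR adjusted p = 1.98e-10), the largest fall of any member, and 257 of the 2069 genes that fell did so at least as far. Slc7a2 (CAT2), a cationic transporter known for supplying arginine to activated macrophages, was near the floor in this line, at 0.744, 0.639 and 0.633 CPM in controls and 0.667, 0.551 and 0.471 CPM in treated libraries. These values overlapped (log2 -0.25 ± 0.138, edgeR adjusted p = 0.605). Slc7a3 (CAT3) was equally low, with 0.637 ± 0.214 CPM in controls and 0.871 ± 0.216 CPM in treated libraries (log2 0.44, edgeR adjusted p = 0.32).

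The promoter of Slc7a1 is shown because this gene fell farthest, and that of Slc7a11 because of the motif letters it holds. RefSeq promoters (GRCm38.p6) were matched for 29 of the 42 members. Bases before each start were searched on both strands for TGATGNAA, the core of the amino acid response element that ATF4 binds, and for GAAANNGAA, a loose form of the interferon-stimulated element. The capitals mark these matches in the 250 bases before the start, printed 5′ to 3′ on the gene's strand. All 3 printed windows precede transcript starts that lie inside the gene's span.
Slc7a1, internal start, chr5:148392816-148393065: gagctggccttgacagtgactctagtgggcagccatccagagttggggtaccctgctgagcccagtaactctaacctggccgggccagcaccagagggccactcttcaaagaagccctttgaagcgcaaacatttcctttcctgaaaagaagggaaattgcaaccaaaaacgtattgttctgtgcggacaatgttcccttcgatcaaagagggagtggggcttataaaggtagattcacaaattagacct
Slc7a11, internal start, chr3:50443614-50443863: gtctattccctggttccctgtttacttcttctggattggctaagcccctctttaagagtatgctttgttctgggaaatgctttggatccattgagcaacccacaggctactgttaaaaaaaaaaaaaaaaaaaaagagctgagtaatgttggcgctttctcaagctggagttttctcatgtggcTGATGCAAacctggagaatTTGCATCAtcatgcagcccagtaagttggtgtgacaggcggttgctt
Slc6a19, internal start, chr13:73692637-73692886: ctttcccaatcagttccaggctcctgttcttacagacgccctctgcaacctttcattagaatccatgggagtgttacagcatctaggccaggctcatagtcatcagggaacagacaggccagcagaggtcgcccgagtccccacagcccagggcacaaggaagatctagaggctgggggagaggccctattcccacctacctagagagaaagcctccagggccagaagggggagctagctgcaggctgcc
Slc7a1 held neither motif before this internal start or before its farthest upstream start. Slc7a11 held the amino acid response core at -66 to -59 and again, on the other strand, at -47 to -40. Slc6a19, shown as the member that rose, held neither motif in this window. The amino acid response core was found in 3.45% of all 32851 promoters. Counted by gene, with any of its promoters, it was found in 2.29% of tested genes and in 2 of the 29 members, Slc7a11 and Slc7a7. The loose interferon-stimulated letters were found in 7.13% of all promoters, in 7.38% of tested genes and in 4 of the 29 members. Of the 5 called members with a promoter in the table (Slc7a1, Slc7a6, Slc3a2, Slc1a4 and Slc6a19), none held either motif in the windows searched. For Slc7a6, Slc3a2 and Slc6a19 those windows all lie inside the gene's span, so the bases before its outer end were not searched. A match is only a match of letters, and its absence from this window says nothing of the factor.

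The heavy chain and 2 of its light chains fell. Slc7a5 (chromosome 8, 121881146 to 121907686, minus strand) encodes LAT1, which brings in leucine, phenylalanine and tryptophan in exchange for glutamine. Slc7a5 had 206, 185 and 195 CPM in controls and 129, 131 and 116 CPM in treated libraries. All treated libraries lay below all controls (log2 -0.64 ± 0.0701, edgeR adjusted p = 8.58e-09). Slc3a2 (chromosome 19, 8706882 to 8723369, minus strand), the heavy chain, had 167, 154 and 152 CPM in controls and 126, 130 and 124 CPM in treated libraries. These did not overlap either (log2 -0.32 ± 0.0448, edgeR adjusted p = 4.41e-05). Slc7a6 (chromosome 8, 106168219 to 106198714, plus strand) encodes y+LAT2, which exchanges arginine for neutral amino acids and also pairs with CD98. Slc7a6 had 157, 156 and 156 CPM in controls and 119, 128 and 125 CPM in treated libraries (log2 -0.33 ± 0.0294, edgeR adjusted p = 1.63e-05). Slc7a5 and Slc3a2 had counts that were not whole numbers, as when some reads are divided between similar genes, so their single values are less certain than that of Slc7a6.

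The ratio of light to heavy chain was taken in each library from the TPM values, a comparison chosen after the values were seen. Slc7a5 over Slc3a2 was 0.875, 0.835 and 0.894 in controls and 0.719, 0.721 and 0.656 in treated libraries. The groups did not overlap, and the exact two-sided permutation p was 0.1, the smallest that 3 against 3 libraries can give. Slc7a6 over Slc3a2 was 0.64 ± 0.022 in controls and 0.64 ± 0.0211 in treated libraries, with overlapping values (exact permutation p = 1). Slc7a1 over Slc7a6, both carriers of arginine, went from 0.545 ± 0.021 to 0.413 ± 0.0271 (n = 3 per group, exact permutation p = 0.1). Of the 6 ratios computed, 4 had groups that did not overlap, and none could pass a threshold of 0.05.

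**Figure D3:**
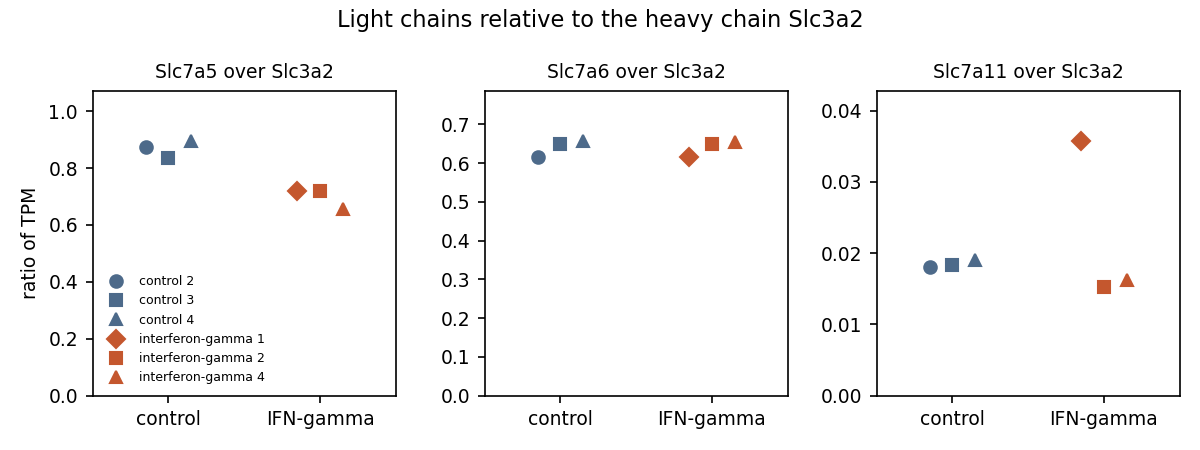
Ratio of TPM of a light chain to the heavy chain Slc3a2 (vertical) in each library, control or interferon-gamma (horizontal), for Slc7a5, Slc7a6 and Slc7a11; symbols tell the libraries apart. The Slc7a5 ratio was lower in all treated libraries, that of Slc7a6 overlapped, and that of Slc7a11 was high in treated library 1 only.

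Of the other large neutral carriers, Slc43a2 (LAT4) was tested and not called (5.07 ± 0.631 CPM in controls, 4.33 ± 0.753 CPM in treated libraries, log2 -0.23, edgeR adjusted p = 0.242). Slc43a1 (LAT3) totalled 12 counts in controls and 6 in treated libraries, and Slc7a8 (LAT2) totalled 2 and 2 counts. Of the 4 large neutral transporters with a row, LAT1 thus had by far the highest counts.

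Among small neutral transporters 2 of 6 tested fell, against 18.1% of all genes tested, and 6 genes are too few to compare with that share. Slc1a4 (chromosome 11, 20302180 to 20332713, minus strand) had 27.2, 26.5 and 24 CPM in controls and 18.7, 18.5 and 15.7 CPM in treated libraries. Every treated library lay below every control (log2 -0.55 ± 0.0982, edgeR adjusted p = 1.39e-05). Slc38a1 (SNAT1, a sodium-coupled glutamine carrier) had 73.1, 74.7 and 80.6 CPM in controls and 63.7, 65.6 and 62.5 CPM in treated libraries, with no overlap (log2 -0.25 ± 0.0471, edgeR adjusted p = 0.00132). The most abundant member, Slc38a2 (SNAT2), is known for its control by amino acid supply. Slc38a2 had 460, 530 and 502 CPM in controls and 485, 495 and 520 CPM in treated libraries, and the groups overlapped (log2 0.01 ± 0.0671, edgeR adjusted p = 0.927). Its sign changed with scaling (log2 -0.06 on total counts), so it has no direction. Slc38a1 (chromosome 15, 96571418 to 96643438) and Slc38a2 (96687392 to 96699728) lie side by side on that chromosome, and Slc38a4, at 1.93 ± 0.684 and 2.09 ± 0.176 CPM, follows them. The glutamine transporter gene Slc1a5 (ASCT2), a close relative of Slc1a4, had 36.4, 36.1 and 36.3 CPM in controls and 35.4, 35.5 and 31.8 CPM in treated libraries. Its treated values were all lower, by too little for a call (log2 -0.08 ± 0.0514, edgeR adjusted p = 0.341). Slc38a7, which moves glutamine and asparagine out of lysosomes, had log2 -0.10 (edgeR adjusted p = 0.267).

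**Figure D4:**
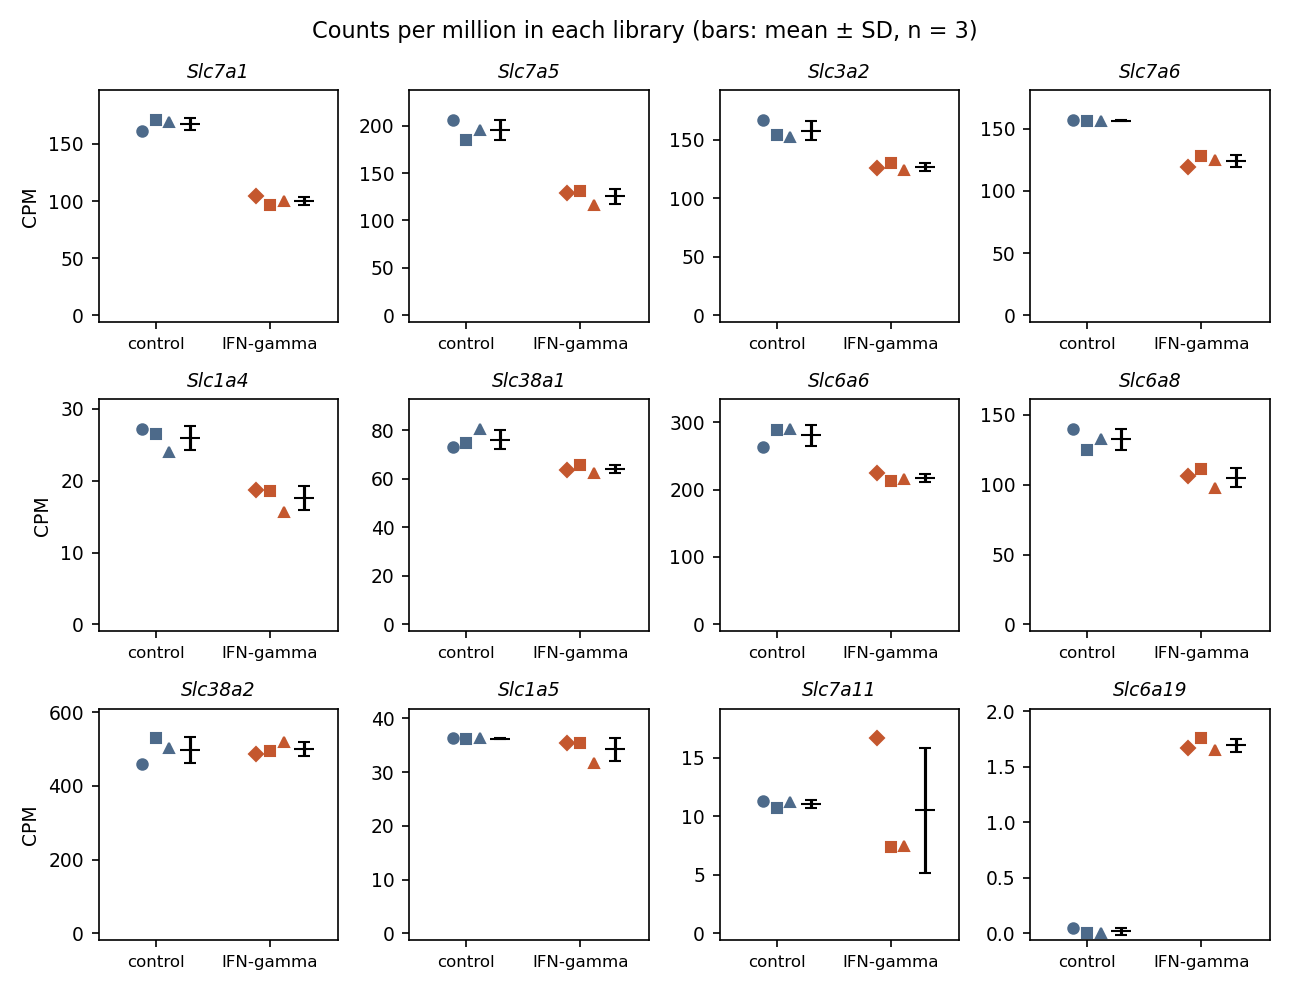
CPM (vertical, from 0) of 12 transporter genes in each library, control in blue and interferon-gamma in orange, with the mean ± SD, n = 3 per group. Symbols tell the libraries of a group apart, and the same symbol need not mark the same library number in both groups. In the upper 8 panels all treated libraries lay below all controls, Slc38a2 overlapped, Slc7a11 had treated library 1 above and the other treated libraries below the controls, and Slc6a19 was near 0 in controls.

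Slc6a19 (chromosome 13, 73679745 to 73700780, minus strand) encodes B0AT1, the sodium-coupled carrier that takes up neutral amino acids across the apical membrane of small intestine and kidney. Slc6a19 had 1, 0 and 0 counts in control libraries 2, 3 and 4, and 30, 32 and 28 counts in treated libraries 1, 2 and 4. The treated libraries were close together and far above every control. The ratio of depth-scaled totals was 95.8 (exact binomial 95% interval 16.8 to 3824, which covers counting error only), and the edgeR adjusted p was 9.61e-09. The gene passed the filter on low counts only through the treated libraries, so its call as the 1 risen member is no support for a rise among transporters. Its fitted log2 fold change rests on the single count in control library 2: it was 6.12 with all libraries, 7.95 without control library 2 and 5.66 without control library 3 or control library 4. The treated level stayed low, at 1.69 ± 0.0605 CPM and 0.707 TPM, against 58.7 TPM for Slc7a5 in the same libraries. Of 10 enterocyte genes 6 had a row and 2 were tested, Slc6a19 itself and Anpep. Anpep, the brush border aminopeptidase, fell (8.45 to 6.24 CPM, log2 -0.44, edgeR adjusted p = 0.00471). Sis and Lct, genes of brush border disaccharidases, were too low to test, with totals of 5 and 15 counts for Sis and 3 and 12 counts for Lct in controls and treated libraries. The summed level of the enterocyte genes, Slc6a19 included, was 7.98 to 9.5 CPM in controls and 8.18 to 8.86 CPM in treated libraries. Most of this sum was Anpep, which fell while Slc6a19 rose, so its evenness says little of the single genes. The part of the enterocyte genes in the Slc6a19 result was not tested. Slc6a9 (GLYT1, glycine) had 26.4, 25.5 and 23.1 CPM in controls and 24.9, 25.3 and 22.1 CPM in treated libraries, with overlap (log2 -0.05, edgeR adjusted p = 0.64). Part of the Slc6a9 exons, 27.8%, overlaps the exons of Ccdc24 on the other strand, and the sources used here do not give whether strand was used in counting.

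None of the proton-coupled and lysosomal carriers was called. Slc36a1 (PAT1) was at 22.3 ± 0.753 CPM in controls and 22.8 ± 0.884 CPM in treated libraries. Slc36a4 (PAT4), the most abundant of the proton-coupled ones, had 38.8, 42.2 and 41.1 CPM in controls and 40.3, 37.7 and 41 CPM in treated libraries (log2 -0.04, edgeR adjusted p = 0.674). Slc38a9, the lysosomal protein through which arginine is sensed by mTORC1, had 7.55, 9.7 and 8.97 CPM in controls and 9.34, 10.3 and 9.54 CPM in treated libraries, with overlap (log2 0.16 ± 0.114, edgeR adjusted p = 0.279).

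Transcripts of the acidic transporter genes among the members were few. Of 4 acidic transporter genes with a row only Slc1a3 (GLAST), a glutamate and aspartate carrier, was tested. Slc1a3 had 4.2, 4.53 and 4.22 CPM in controls and 5.56, 4.84 and 4.53 CPM in treated libraries. The lowest treated library and the highest control differed only beyond these digits, and the gene was not called (log2 0.21 ± 0.0917, edgeR adjusted p = 0.239). Slc1a2 totalled 6 and 5 counts in the 3 controls and 3 treated libraries, and Slc1a6 and Slc1a7 totalled 1 count each in controls and 0 in treated libraries.

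Slc7a11 (chromosome 3, 50364936 to 50499087, minus strand) encodes xCT, the light chain that imports cystine in exchange for glutamate and thereby supplies glutathione synthesis. Slc7a11 had 11.3, 10.7 and 11.2 CPM in controls and 16.7, 7.38 and 7.48 CPM in treated libraries 1, 2 and 4. Treated library 1 lay above all controls and the other treated libraries below them. The gene was not called (log2 -0.07 ± 0.388, edgeR adjusted p = 0.913), but without treated library 1 it was called lower (log2 -0.58, edgeR adjusted p = 0.000379), so 1 library decides this value. Among 9727 genes with a mean of at least 5 CPM, only 3, Slc7a11 included, had a ratio of highest to lowest treated library as wide as its 2.27. The next widest member, Slc38a6, was at 1.4. Gclm, a glutathione synthesis enzyme subunit gene, was even across the same treated libraries (132, 132 and 137 CPM, from 76.6, 78.1 and 72.5 CPM in controls), as were Asns (89.8, 92.2 and 94.8 CPM) and Chac1 (7.01, 7.6 and 6.59 CPM, named after its values were seen). Why library 1 differed was not tested.

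Carriers of other small molecules in the same families fell as well. Slc6a6 (chromosome 6, 91684048 to 91759063, plus strand), which encodes the taurine transporter, had 263, 288 and 290 CPM in controls and 224, 212 and 216 CPM in treated libraries (log2 -0.37 ± 0.0519, edgeR adjusted p = 8.77e-06). Slc6a8 (chromosome X, 73673133 to 73682502, plus strand), which encodes the creatine transporter, had 140, 125 and 133 CPM in controls and 106, 111 and 97.7 CPM in treated libraries (log2 -0.34 ± 0.0709, edgeR adjusted p = 6.99e-05). Neither pair of groups overlapped. Of the members given no substrate class here, Slc38a6, Slc38a10 and Slc43a3 were tested and not called, with log2 fold changes from -0.07 to 0.06. The most abundant of them, Slc38a10, had 115, 114 and 119 CPM in controls and 112, 112 and 107 CPM in treated libraries (edgeR adjusted p = 0.294, and called lower on total counts at 0.033).

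Genes around the transporters were read from lists chosen by function, whose counts stand against 19.9% risen and 18.1% fallen among all genes tested. In the amino acid response list, 7 of 23 tested genes rose and 2 fell, with a median log2 fold change of -0.02. The transcription factor Atf4 was at 425 ± 22.4 and 427 ± 16.5 CPM (edgeR adjusted p = 0.952), and its target Asns, asparagine synthetase, at 98.8 ± 1.95 and 92.3 ± 2.5 CPM (log2 -0.10, edgeR adjusted p = 0.142, and called lower on total counts at 0.0114 and on upper-quartile scaling at 0.0229). Ddit3 was not called either (log2 -0.04). Those that rose included Atf3 (3.93 to 33.4 CPM, log2 3.08), Trib3 (7.38 to 22.5 CPM, log2 1.61), Cebpb (45.7 to 58.4 CPM, log2 0.35) and the kinase Eif2ak2 (78.6 to 304 CPM, log2 1.95), which senses double-stranded RNA and is itself an interferon target. Phgdh (log2 -0.13) and Shmt2 (log2 -0.16), genes of serine and glycine synthesis chosen after values were seen, fell. ATF4 activity depends on translation, which these data do not measure.

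Of 37 tested genes of mTORC1 amino acid sensing, 8 rose and 3 fell (median log2 0.08). The share that rose, 8 of 37, is near the 19.9% of all genes tested. Castor2, a relative of the arginine sensor Castor1, rose from 19.7 ± 0.934 to 29.5 ± 0.785 CPM (log2 0.58 ± 0.0449, edgeR adjusted p = 8.52e-07). Depdc5 (log2 0.34), Seh1l (log2 0.28) and Fnip1 (log2 0.33) rose less. Mlst8 (log2 -0.21), Tfeb (log2 -0.30) and Flcn (log2 -0.18), chosen after values were seen, fell.

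In the arginine and polyamine list, 3 of 15 tested rose and 4 fell (median log2 0.04). Nos2, which makes nitric oxide from arginine, went from 8.28 ± 0.814 to 518 ± 37.9 CPM while Slc7a1 went from 167 ± 5.26 to 100 ± 3.6 CPM. Ass1, which rebuilds arginine from citrulline, was at 12.3 ± 0.831 and 12.7 ± 0.851 CPM (edgeR adjusted p = 0.767). Spermidine synthase Srm fell (289 to 212 CPM, log2 -0.45, edgeR adjusted p = 1.09e-06), whereas Azin2 (4.23 to 13.1 CPM, log2 1.64) and the polyamine acetyltransferase gene Sat1 (81.3 to 114 CPM, log2 0.49) rose.

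Of 12 genes in the tryptophan and branched-chain list 8 had a row and were tested. At an adjusted p under 0.05 with edgeR 3 of these rose and none fell (median log2 0.13). Ido2, with 6 counts in all controls and 374 in treated libraries, passed the filter on low counts only through the treated libraries. Its call is therefore no support for a rise in this list. Wars, the tryptophanyl-tRNA synthetase gene, went from 78.4 ± 2.34 to 581 ± 21.4 CPM, Ido2 from 0.106 to 7.03 CPM, and Bcat1, a branched-chain aminotransferase gene, from 99.7 ± 1.68 to 154 ± 5.28 CPM (log2 0.63, edgeR adjusted p = 1.71e-09). Over the same samples Slc7a5, which carries tryptophan and the branched-chain amino acids, fell. In the glutamine and glutathione list 2 of 17 tested rose and 3 fell (median log2 0.00): Gclm (log2 0.82) and Keap1 (log2 0.28) rose, and Gclc (55.2 to 42.5 CPM, log2 -0.38) and the glutamine synthetase gene Glul (72.7 to 60.6 CPM, log2 -0.26) fell. Of 20 tested carriers of amino acids or peptides in other families, 3 rose and 3 fell (median log2 0.00). Among them the mitochondrial ornithine carrier gene Slc25a15 fell (20.5 to 15.2 CPM, log2 -0.44, edgeR adjusted p = 0.00032), as did the mitochondrial serine carrier gene Sfxn1 (log2 -0.29), while the lysosomal cysteine carrier component Mfsd12 (log2 0.44) and the mitochondrial glutamate carrier gene Slc25a22 (log2 0.32) rose.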

How the data were processed

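Per the labels' protocols, RNA of 6 samples was read by DNBSEQ. The submitters' processing notes list HISAT, HISAT2, mm10 and GRCm38.p6 without roles. For the program that counted reads, none is named by the sources used here. Tables, 1 per sample, held estimated counts and TPM as deposited by the authors, per the file headers. Counts of 6.8% to 7.37% of genes per library were not whole, and 4 members had such counts.

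Rounded counts went into edgeR 4.0.16 under R 4.3.3 (filterByExpr with minimum count 10, TMM, glmQLFit with robust=TRUE, glmQLFTest), adjusted by Benjamini-Hochberg over all 11423 genes tested, threshold 0.05, after a check on simulated data. In that check 58% of simulated 1.25-fold changes and 88% of 1.5-fold changes were recovered, and 7.14% of 182 calls were false. A gene not called may therefore still have changed by a small amount. CPM are per effective library size. Standard errors come from log2 CPM with a prior count of 2 and can be too small for low genes. Alternatives were DESeq2 1.42.0, other scalings and filters, a replicate block and leaving out each library. Members were placed by NCBI Gene identifier on RefSeq GRCm38.p6; all 42 starts matched the tables to 3 digits. Exon overlaps are from GENCODE M21. Members, classes and lists were chosen with earlier results of these data known. Full values are given for called members of at least 1 CPM and a fold of at least 1.25, the most abundant tested member of each class and 7 chosen genes; each list adds up to 4 genes of smallest adjusted p and 6 chosen genes. Others were named after their values were seen. The search for 1 further planned promoter motif is not reported here.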

Additional observations from a re-analysis of the deposited data

How the results depend on the processing

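Under 13 alternatives (DESeq2, 3 scalings, 2 filters, a replicate block and 6 fits that each left out 1 library), the 9 called members kept their direction and call. The log2 fold change of Slc6a19 ran from 5.66 to 7.95. Members risen stayed at 1 and members fallen at 8 to 9. Over all genes, leaving out 1 library gave 1851 to 2187 rises and 1710 to 2025 falls. Scaling on total counts gave 3124 falls. The replicate numbers 2 and 4 are shared by both groups and 1 and 3 are not. The labels do not say that a shared number marks a shared culture or day, so the numbers were not taken as a pairing. Same-numbered samples deviated from their group means with r = 0.128 and r = -0.0899, too few values to settle a pairing. With the replicate block 1793 genes fell, and Slc7a11 was called lower (log2 -0.60, edgeR adjusted p = 0.000855). Control 3 and treated 1 have no partner in that block, so its fold changes rest on libraries 2 and 4 of each group. For Slc7a11 the block is thus no separate support beside the fit without treated library 1.

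Signs of uncalled genes changed as follows, and the cause was not tested. On upper-quartile scaling the log2 fold change was -0.05 for Slc38a2 and Atf4, -0.02 for Slc36a1 and -0.01 for Ass1. On total counts it was -0.06 for Slc38a2, -0.04 for Slc36a1, -0.01 for Slc43a3, -0.07 for Atf4 and -0.03 for Ass1. DESeq2 and its size factors in edgeR gave 0.00 for Atf4, and the replicate block gave -0.03 for Slc36a1. Leaving out 1 library gave -0.58 to 0.14 for Slc7a11 (0.14 and 0.12 without treated 2 and treated 4), -0.12 to 0.01 for Slc6a9, -0.05 to 0.04 for Slc38a2, -0.06 to 0.43 for Slc38a4, -0.01 to 0.05 for Slc36a1, -0.21 to 0.06 for Slc38a6, -0.26 to 0.01 for Cd68, -0.05 to 0.04 for Atf4, -0.17 to 0.08 for Ddit3 and -0.01 to 0.09 for Ass1. Members of a few counts per library carry too few reads for a difference to be detectable at this depth.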

Other observations

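Around Slc6a19, protein-coding genes within 200 kb were read from RefSeq. Slc12a7, a potassium-chloride cotransporter gene that lies next to it (chromosome 13, 73733052 to 73816754), rose from 77.9 to 111 CPM (log2 0.51, edgeR adjusted p = 1.27e-07). Clptm1l (127 and 138 CPM, edgeR adjusted p = 0.0545) and Lpcat1 (53.6 and 54.5 CPM, edgeR adjusted p = 0.775) were not called, and Tert was at 0.601 and 0.576 CPM. The neighbouring Slc6a18 and Slc6a3 had no row in the tables analysed here. The same window was read around Slc38a2, Slc7a5 and Slc7a6. Near Slc7a5, Zfp469 fell (25.3 to 4.03 CPM, log2 -2.65). Near Slc7a6, Ddx28 fell (log2 -0.31) and Smpd3 rose (log2 0.47). Such neighbours, named after their values were seen, stand against 19.9% risen and 18.1% fallen among all genes tested. Whether neighbouring genes changed together was not tested.

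By the KEGG terms in the deposited tables, 9 members belonged to protein digestion and absorption, of which 6 were tested, 1 rose (Slc6a19) and 1 fell (Slc3a2). The mTOR signalling term held Slc3a2, Slc7a5 and Slc38a9, of which the first 2 fell. Over all genes tested 19.9% rose and 18.1% fell, and these terms hold too few tested members to be set against those shares. Slc6a19 passed the filter on low counts only through the treated libraries. The other genes as uneven as Slc7a11 among treated libraries, named after their values were seen, were Gm14434 (5.34, 2.15 and 11.2 CPM in treated libraries 1, 2 and 4) and the locus LOC115487111 (14.9, 4.13 and 6.36 CPM).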
